A study of Mus musculus with 16 samples.

Results

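The miR-15 and miR-16 family comprises microRNAs (miRNAs) that share a seed, the short stretch at the 5′ end through which a miRNA pairs with its target messages. Its members were taken as the rows of mouse miRNAs on the array that carry the names mmu-miR-15a-5p, mmu-miR-15b-5p, mmu-miR-16-5p, mmu-miR-195a-5p or mmu-miR-497a-5p. All 5 were found among the 1881 mouse miRNAs of the array. They were measured in serum RNA of male mice aged 4, 8, 36 and 58 weeks, with 4 mice at each age and 1 single-dye (Cy3) Agilent array per mouse. No treatment or genetic change is given for any age, and the labels name no strain, so the groups differ by age alone as far as the labels say. The study searched for circulating miRNAs that change as mice age.

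Family members are known as brakes on cell division and survival: their targets include D-type cyclins, cyclin E1 and the anti-apoptotic protein Bcl2. In mice they come from paired genes, miR-15a with a first copy of miR-16, miR-15b with a second copy of miR-16, and miR-497a with miR-195a. miR-16 is abundant in red blood cells and is often used as a reference in serum and plasma measurements.

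The mature sequences are shown because the shared seed defines the family and because near-identical tails bear on which members an array can tell apart. All 5 were matched in RefSeq (GRCm38.p6). They are written 5′ to 3′, with the seed, bases 2 to 8, in capitals.

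mmu-miR-15a-5p: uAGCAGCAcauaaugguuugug
mmu-miR-15b-5p: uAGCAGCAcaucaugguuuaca
mmu-miR-16-5p: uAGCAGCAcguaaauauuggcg
mmu-miR-195a-5p: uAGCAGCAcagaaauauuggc
mmu-miR-497a-5p: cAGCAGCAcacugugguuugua

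All 5 carry the same 7 seed bases. Aligned from the 5′ end without gaps, miR-16-5p and miR-195a-5p were the most alike pair, with 19 of 21 positions identical. They also shared an unbroken run of 10 bases after the seed. miR-15a-5p and miR-15b-5p matched at 18 of 22 positions, and miR-15a-5p and miR-497a-5p at 17 of 22. The least alike pair, miR-16-5p and miR-497a-5p, matched at 11 of 22.

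On GRCm38.p6 the mature miR-15a-5p lies at chr14:61632075-61632096 and the first copy of miR-16-5p at chr14:61631936-61631957, both on the minus strand within the long noncoding RNA gene Dleu2. The mature miR-15b-5p lies at chr3:69009775-69009796 and the second copy of miR-16-5p at chr3:69009918-69009939, both on the plus strand within Smc4, which encodes a condensin subunit. The mature miR-497a-5p lies at chr11:70234730-70234751 and miR-195a-5p at chr11:70235062-70235082, both on the plus strand, with no other kind of gene of the RefSeq table over them. The mature sequences of a pair are separated by 117, 121 and 310 bases in that order. The array reads miR-16-5p as 1 sequence, so its 2 gene copies cannot be told apart.

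Between 163 and 360 mouse miRNAs were detected per array. The red cell miRNAs miR-451a and miR-486a-5p were detected on all 16 arrays, miR-144-3p on 6 and miR-144-5p on none. The liver miRNA miR-122-5p was detected on 15 arrays and miR-122-3p on none. Of the brain miRNAs, miR-128-3p was detected on 11 arrays, and miR-9-5p and miR-124-3p on none. The arrays of 4 and 8 weeks lay on 1 slide and those of 36 and 58 weeks on another, so that between those pairs of ages an effect of age and one of the slide cannot be told apart. 1 array stood apart: on 36-week replicate 4 the negative-control spots had an SD of 59.3, against 1.82 to 19.1 on the other 15 arrays. The lowest log2 signal called detected was 7.66 on that array and at most 4.61 on the others. No family member was detected there, so each 36-week result is also given without it.

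Signals are given as log2 of the background-subtracted intensity after scaling of the arrays to each other. Signals below 1.92 on this scale were set to that floor, and values at the floor have no order. Signals of different miRNAs come from different probes and do not compare their amounts.

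miR-15a-5p, miR-15b-5p and miR-16-5p were detected in the serum of mice of every age. miR-16-5p and miR-15b-5p were each detected on 15 of the 16 arrays, all but 36-week replicate 4, and miR-15a-5p on 14. miR-497a-5p was detected on 8 arrays, with 2, 3, 2 and 1 of the 4 mice at 4, 8, 36 and 58 weeks. miR-195a-5p was detected in 2 mice, both 4 weeks old. Detection thus ranged from 2 to 8 arrays for the miRNAs of the chr11 gene pair, and from 14 to 15 for those of the other pairs. miR-195a-5p was not detected on 14 arrays, 13 of which detected miR-16-5p, the member closest to it in sequence.

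The log2 signal of mmu-miR-16-5p was 8.12, 8.58, 8.52 and 8.22 in the 4-week mice and 6.92, 7.41, 7.83 and 7.66 in the 8-week mice. It was 7.86, 8.41, 9.08 and 1.92 (not detected) in the 36-week mice, and 7.98, 7.39, 8.65 and 7.69 in the 58-week mice. Every 8-week mouse lay below every 4-week mouse. The 58-week mice spread over the ranges of both. The lowest detected 36-week value (7.86) lay close to the highest 8-week value (7.83), and these ages were on different slides. The means were 8.36 ± 0.23 (SD, n = 4) at 4 weeks, 7.46 ± 0.40 (n = 4) at 8 weeks and 7.93 ± 0.54 (n = 4) at 58 weeks. At 36 weeks the mean was 6.82 ± 3.30 (n = 4), and 8.45 ± 0.61 without replicate 4 (n = 3). Ordered by mean, 8 weeks was then lowest, followed by 58, 4 and 36 weeks, and neighbours in this order overlapped in range.

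The log2 signal of mmu-miR-15b-5p, the partner of the second miR-16 copy, was 7.29, 7.74, 7.84 and 8.25 at 4 weeks and 6.79, 7.29, 7.12 and 5.89 at 8 weeks. It was 7.67, 7.59, 8.67 and 5.21 (not detected) at 36 weeks, and 7.39, 7.20, 7.81 and 7.11 at 58 weeks. The 8-week mice again lay below all 4-week mice, by less than 0.01 where the groups came closest. The means were 7.78 ± 0.40, 6.77 ± 0.62, 7.28 ± 1.47 and 7.38 ± 0.31 (SD, n = 4) from 4 to 58 weeks, with 7.98 ± 0.60 at 36 weeks without replicate 4 (n = 3). The mean at 8 weeks was the lowest of the 4 ages with or without that array, whereas for miR-16-5p it was the lowest only without it. As for miR-16-5p, the 58-week range overlapped that of every other age.

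The log2 signal of mmu-miR-15a-5p, the partner of the first miR-16 copy, was 5.06 (not detected), 6.09, 5.69 and 5.87 at 4 weeks and 4.75, 5.75, 5.42 and 4.89 at 8 weeks. It was 6.27, 5.94, 4.19 and 1.92 (not detected) at 36 weeks, and 6.01, 5.64, 6.59 and 5.96 at 58 weeks. All ages overlapped, and the 36-week mice had the widest spread. The means were 5.68 ± 0.44, 5.20 ± 0.46, 4.58 ± 1.99 and 6.05 ± 0.39 (SD, n = 4), with 5.47 ± 1.12 at 36 weeks without replicate 4 (n = 3). Its mean was highest at 58 weeks, whereas those of miR-16-5p and miR-15b-5p were highest at 4 weeks, or at 36 weeks without replicate 4. In 36-week replicate 3 it had its lowest detected value, on the array where miR-16-5p and miR-15b-5p had their highest.

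The log2 signal of mmu-miR-497a-5p was 3.69 (not detected), 4.21, 3.58 and 2.32 (not detected) at 4 weeks and 2.97, 3.19, 2.09 (not detected) and 2.55 at 8 weeks. It was 3.17, 3.09, 1.92 and 1.92 (the last pair not detected) at 36 weeks, and 2.15, 1.92, 2.99 and 2.20 at 58 weeks, where only the third mouse was detected. All ages overlapped. The means were 3.45 ± 0.80, 2.70 ± 0.48, 2.53 ± 0.70 and 2.32 ± 0.47 (SD, n = 4), with 2.73 ± 0.70 at 36 weeks without replicate 4 (n = 3). The mean was highest at 4 weeks and lowest at 58 weeks, and all means lay within 2 log2 units of the floor.

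mmu-miR-195a-5p reached 3.28 and 2.39 in 2 of the 4-week mice and lay at the floor on the other 14 arrays. No fold is given, since the other 2 mice of 4 weeks and all older mice were below detection. It entered no fit of the 285 miRNAs. Fitted among all 572 miRNAs detected on at least 1 array, it did not pass, with adjusted p = 0.515 for 8 against 4 weeks and 0.981 for 58 against 4 weeks by limma. That fit cannot decide whether it differs by age, since it entered by its 4-week detections and all older mice were set to the floor.

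**Figure D1:**
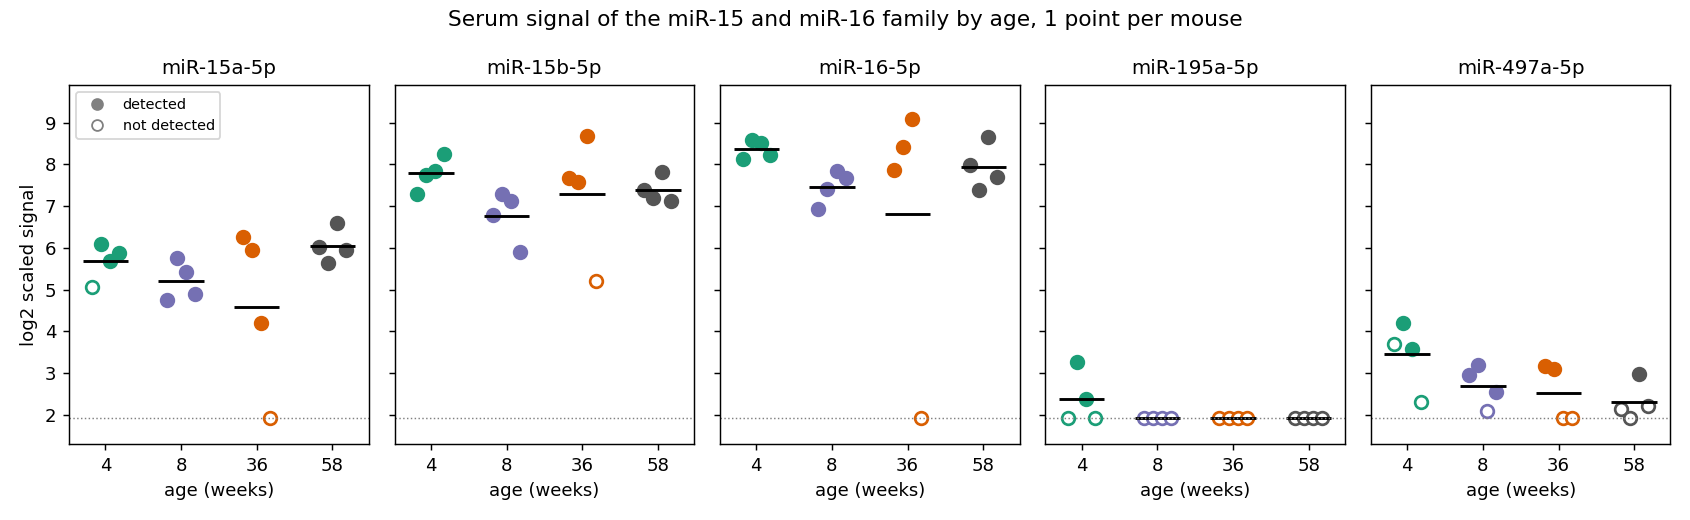
Log2 scaled signal (y axis, floor as a dotted line) of the 5 family members against age in weeks (x axis), 1 point per mouse, filled where the miRNA was detected and open where it was not, with bars at the mean of all 4 mice. miR-16-5p and miR-15b-5p sit lower at 8 than at 4 weeks, 36-week replicate 4 pulls the 36-week means down, and miR-195a-5p is at the floor on 14 arrays.

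Which miRNAs differ between 8 and 4 weeks, from weaning age to young adulthood, was tested on a single slide. miR-15b-5p was 1.0 ± 0.61 (SE) lower on the log2 scale at 8 weeks and miR-16-5p 0.90 ± 1.11 lower, which are 2.01-fold and 1.87-fold lower. miR-497a-5p differed by -0.75 ± 0.51 and miR-15a-5p by -0.48 ± 0.74. None of the 4 tested members passed limma's test, nor an unadjusted p of 0.05, with adjusted p = 0.536 for miR-15b-5p and miR-497a-5p, 0.706 for miR-16-5p and 0.798 for miR-15a-5p, and 0% of all 285 tested miRNAs passed it (2.11% at the unadjusted threshold). The median over all 285 tested miRNAs was itself -0.72, so the family's differences lay on both sides of that of the serum miRNAs as a whole. The SEs pool the spread of all ages, including 36-week replicate 4. Without that array they fell to 0.40 for miR-15b-5p and 0.38 for miR-16-5p, with adjusted p = 0.346 for both. Both then passed an unadjusted p of 0.05 (0.0248 and 0.0332), as did 7.02% of tested miRNAs, while 0% passed after adjustment. Of the 4-week arrays, replicates 1 and 4 were marked for evaluation by Feature Extraction. Their negative-control SDs were 19.1 and 7.45, against 1.82 to 3.54 on the 8-week arrays. Without the 3 arrays so marked, which include 36-week replicate 4, the median over all tested miRNAs was -0.32. After adjustment 0 of the 285 then passed.

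For 2 members, miR-15b-5p and miR-16-5p, all 4 mice of 8 weeks lay below all 4 of 4 weeks. This held for 3.86% of the 285 tested miRNAs. Without any scaling between arrays, where the median difference of all tested miRNAs was -1.20, miR-497a-5p joined them, among 13.7% of tested miRNAs. With the total signal of each miRNA as deposited the separation held for miR-16-5p alone, and with quantile normalization or the brightest probe for no member. Under quantile normalization the difference was -0.54 for miR-16-5p and -0.23 for miR-15b-5p, but 0.57 for miR-15a-5p and 0.64 for miR-497a-5p, against a median of 0.25 over all tested miRNAs. The difference of miR-15a-5p was also above 0 with the total signals as deposited (0.27), and that of miR-497a-5p with normexp (0.0072).

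Blood cell miRNAs were set beside these differences. The log2 of the summed signal of the red cell miRNAs (4 on the array, 3 detected on any) ranged from 12.05 to 12.87 at 4 weeks and from 11.28 to 12.20 at 8 weeks. That sum was mostly miR-451a, whose mean was lower at 8 weeks, while miR-486a-5p had the higher mean at 8 weeks, 9.66 ± 0.28 against 9.09 ± 0.28 (SD, n = 4), and miR-144-3p lay near the floor at both ages. That of the platelet list (3 of 4 detected on any array) ranged from 9.17 to 9.62 and from 8.06 to 9.76. That of the leukocyte list (3 of 5) ranged from 6.94 to 8.34 and from 6.27 to 7.62. These ranges overlapped between the ages, and the part of red cells, platelets or leukocytes in the miR-16-5p and miR-15b-5p differences was not tested.

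In the comparison of 36 with 8 weeks, which lie on different slides, the direction of 2 members depended on a single array and on the processing. With all arrays miR-16-5p differed by -0.64 ± 1.11 and miR-15a-5p by -0.62 ± 0.74, while without 36-week replicate 4 they differed by 0.99 ± 0.41 and 0.27 ± 0.50. With that array kept, they differed by 0.49 and 0.19 with normexp, and by 1.08 and 0.64 when limma weighted the arrays. miR-15b-5p differed by 0.51 ± 0.61 with all arrays and 1.20 ± 0.43 without it, but by -0.81 with quantile normalization and -0.27 with the total signals as deposited. miR-497a-5p differed by -0.17 ± 0.51 with all arrays and by 0.03 ± 0.50 without 36-week replicate 4, and by 0.03 also without 36-week replicate 3. No member passed in the fit of all arrays, nor at an unadjusted p of 0.05, where 0% and 29.8% of tested miRNAs did. Without that array no member passed after adjustment, and 0% of tested miRNAs did, but miR-15b-5p and miR-16-5p passed the unadjusted threshold (0.0148 and 0.0308), as did 8.42% of tested miRNAs. The adjusted p of limma was 0.549 for miR-15b-5p and 0.686 for miR-16-5p with all arrays, and 0.303 and 0.439 without replicate 4. The median over all tested miRNAs was 0.71 with all arrays and 0.77 without that array.

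The comparison of 58 with 36 weeks, again within a slide, depended on the same array and on the processing. miR-15a-5p was 1.47 ± 0.74 higher at 58 weeks (adjusted p = 0.717 by limma), and 0.58 ± 0.50 higher without 36-week replicate 4. miR-16-5p went from 1.11 ± 1.11 to -0.52 ± 0.41 and miR-15b-5p from 0.09 ± 0.61 to -0.60 ± 0.43. With that array kept, they differed by -0.011 and -0.21 with normexp, and by -0.59 and -0.45 when limma weighted the arrays. miR-15b-5p also turned, to -0.05, without 58-week replicate 3. miR-497a-5p differed by -0.21 ± 0.51, and by -0.41 ± 0.50 without 36-week replicate 4, but by 0.0037 without 36-week replicate 1. No member passed, adjusted or not, with 0% of tested miRNAs called in either fit, 1.75% of them at an unadjusted p of 0.05 over all arrays and 3.86% without replicate 4, and a median over all of them of -0.52 with all arrays and 0.06 without replicate 4. The data thus give no settled direction between these ages for miR-15b-5p, miR-16-5p or miR-497a-5p.

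Across the full span, 58 against 4 weeks, no member passed and 0.351% of tested miRNAs did. miR-497a-5p differed most, by -1.14 ± 0.51 on the log2 scale or 2.20-fold lower at 58 weeks, with an unadjusted p of 0.040 and an adjusted p of 0.864 by limma. It ranked 12 of 285 by p. The unadjusted threshold was passed by 4.56% of all tested miRNAs, and 1 of the 4 members. The mice of the 2 ages overlapped, and the detection calls stood at 2 of 4 mice at 4 weeks and 1 of 4 at 58 weeks. Its difference was 0.51 with normexp background correction, the direction turned, where the median over all tested miRNAs was 0.45.

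The other members differed less between 58 and 4 weeks. miR-16-5p differed by -0.43 ± 1.11, miR-15b-5p by -0.40 ± 0.61 and miR-15a-5p by 0.37 ± 0.74, each with adjusted p = 0.998 by limma, against a median of -0.0031 over all tested miRNAs. The directions of miR-15a-5p and miR-15b-5p were not stable: miR-15a-5p differed by -0.66 without scaling, where the median over all tested miRNAs was -0.95, and miR-15b-5p by 0.069 with quantile normalization. No member had all 58-week mice below all 4-week mice, which held for 2.81% of tested miRNAs. Without scaling between arrays 3 members did, miR-15b-5p, miR-16-5p and miR-497a-5p, as did 21.8% of tested miRNAs.

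The slope over all 4 ages, in log2 signal per doubling of age, was -0.25 ± 0.11 for miR-497a-5p (unadjusted p = 0.040, adjusted p = 0.525 by limma). It was -0.17 ± 0.25 for miR-16-5p, -0.03 ± 0.14 for miR-15b-5p and -0.01 ± 0.18 for miR-15a-5p. Without 36-week replicate 4 the slopes of miR-16-5p, miR-15b-5p and miR-15a-5p were 0.01 ± 0.10, 0.04 ± 0.11 and 0.10 ± 0.11, and that of miR-497a-5p was -0.23 ± 0.11. Without 4-week replicate 4 the slopes of miR-15b-5p and miR-15a-5p were also above 0, at 0.023 and 0.018. The slope of miR-15a-5p was likewise 0.031 without 4-week replicate 2, 0.0069 without 4-week replicate 3 and 0.027 without 36-week replicate 3. None of the 4 passed, against 0.351% of all tested miRNAs, and at the unadjusted threshold 1 did, miR-497a-5p, against 8.77%. The median slope of all tested miRNAs was 0.12. In the test of any difference between the 4 ages the adjusted p was 0.477 for miR-15a-5p and miR-497a-5p, 0.592 for miR-15b-5p and 0.661 for miR-16-5p, again with none passing, adjusted or not, where 0.351% and 4.56% of tested miRNAs did.

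When each array was weighted by how well it followed the fit (limma's array weights), members did pass limma's test. miR-15b-5p and miR-16-5p were higher at 36 than at 8 weeks, by 0.78 (adjusted p = 0.0240) and 1.08 (adjusted p = 0.0112). miR-497a-5p had a slope of -0.29 (adjusted p = 0.00593), and differed by -1.52 for 58 against 4 weeks (adjusted p = 0.00622) and by -0.87 for 58 against 36 weeks (adjusted p = 0.031). In the test of any difference between ages miR-15b-5p, miR-16-5p and miR-497a-5p passed, as did 76.5% of all tested miRNAs. With these weights 63.2% of all tested miRNAs passed for 36 against 8 weeks, 65.6% for the slope, 62.1% for 58 against 4 weeks and 15.1% for 58 against 36 weeks. The medians over all tested miRNAs were 0.90, 0.18, 0.24 and 0.33 in that order. All of these comparisons except 58 against 36 weeks span both slides, so their calls include any difference between slides.

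**Figure D2:**
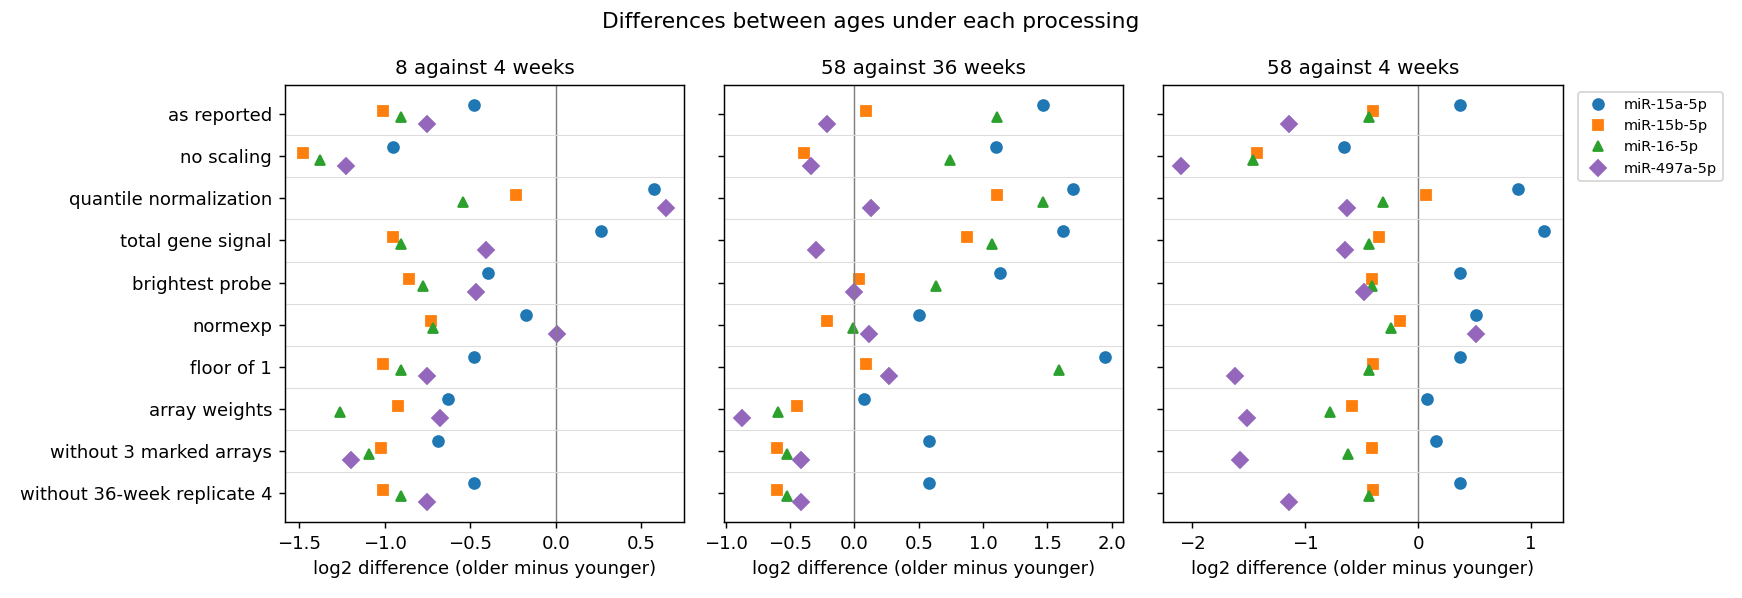
Log2 difference between ages (x axis, older minus younger) of the 4 tested members in 3 comparisons, with a row for each way of processing the arrays. Between 8 and 4 weeks miR-15b-5p and miR-16-5p stay below 0 in the rows shown. Between 58 and 36 weeks they change sign without 36-week replicate 4 or the 3 marked arrays, with normexp and with array weights. miR-15b-5p does so without scaling too. Between 58 and 4 weeks miR-497a-5p is below 0 except with normexp.

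Each member was read by 2 probes of 15 spots each, and their differences served as a check within the arrays. For 8 against 4 weeks the 2 probes gave -0.40 and -0.54 for miR-15a-5p, -1.06 and -0.99 for miR-15b-5p, and -0.87 and -0.91 for miR-16-5p. For 58 against 4 weeks they gave 0.41 and 0.34, -0.25 and -0.43, and -0.43 and -0.43 in the same order. The probes of these 3 members thus ran the same way in both comparisons. For 58 against 36 weeks the probes of miR-15b-5p ran opposite ways, at 0.66 and -0.10, and without 36-week replicate 4 both were below 0, at -0.47 and -0.63. For miR-497a-5p 1 probe was at the floor on 14 arrays and the other gave -1.29 for 58 against 4 weeks, so its difference rests on 1 probe. The probes of miR-195a-5p were at the floor on 15 and 12 arrays.

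A ratio of 2 miRNAs on the same array does not depend on the scaling between arrays, and shows unequal change only. Ratios were taken on arrays where both miRNAs were detected, for 3 pairs and 3 comparisons of ages, and adjusted over these 9 tests. The log2 ratio of miR-15a-5p to miR-16-5p was -2.49, -2.83 and -2.35 in the 4-week mice with both detected and -2.18, -1.66, -2.42 and -2.77 in the 8-week mice. It was -1.59, -2.47 and -4.89 at 36 weeks and -1.97, -1.75, -2.07 and -1.73 at 58 weeks. All 58-week ratios lay above all 4-week ratios, and the 36-week ratios spread the widest. No share of all tested miRNAs with such a separation in their ratio to miR-16-5p is given, so the separation is a description only.

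Between 58 and 4 weeks the ratio of miR-15a-5p to miR-16-5p was higher by 0.68 ± 0.16 (SE) on the log2 scale. The 2-sided exact permutation test gave p = 0.0571 (adjusted p = 0.514), the smallest that 4 against 3 mice allow, so this test could not pass 0.05. With the 4-week mouse in which miR-15a-5p was not detected kept in, the difference was 0.81 and the exact permutation p was 0.0286 (adjusted p = 0.257). These ages were hybridised on separate slides, and an age effect and a slide effect cannot be told apart. For 58 against 36 weeks, on the same slide, the ratio was higher by 1.1 ± 0.99 (exact permutation p = 0.286, adjusted p = 0.83), and by 0.15 without 36-week replicate 3, 1.8 without 36-week replicate 1 and 0.36 with the undetected array kept. For 8 against 4 weeks it was higher by 0.30 ± 0.27 (exact permutation p = 0.40, adjusted p = 0.83), and by 0.10 without 8-week replicate 2, 0.17 without 4-week replicate 3 and 0.47 without 8-week replicate 4.

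The log2 ratio of miR-15b-5p to miR-16-5p had close means at all ages: -0.58 ± 0.41 (SD, n = 4) at 4 weeks, -0.68 ± 0.77 (n = 4) at 8 weeks, -0.47 ± 0.32 (n = 3) at 36 weeks and -0.55 ± 0.27 (n = 4) at 58 weeks. The widest values came from 8-week replicate 4 at -1.77 and 4-week replicate 4 at 0.03. The differences between ages were -0.10 ± 0.44, -0.08 ± 0.23 and 0.03 ± 0.25 (SE) for 8 against 4, 58 against 36 and 58 against 4 weeks, with exact permutation p from 0.743 to 0.83 and an adjusted p of 0.83 for each. Their signs turned when single arrays were left out, so they give no direction.

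The log2 ratio of miR-16-5p to the red cell miRNA miR-451a was -3.97 ± 0.51 (SD, n = 4) at 4 weeks, -4.08 ± 0.19 (n = 4) at 8 weeks, -3.50 ± 0.87 (n = 3) at 36 weeks and -3.89 ± 0.17 (n = 4) at 58 weeks. Both had lower means at 8 than at 4 weeks, with miR-451a at 12.33 ± 0.36 and 11.53 ± 0.51 (SD, n = 4), whereas the mean of the other red cell miRNA detected on all arrays, miR-486a-5p, was higher at 8 weeks. The ratio of miR-16-5p to miR-451a differed by -0.10 ± 0.27 (SE) between these ages (exact permutation p = 0.743, adjusted p = 0.83). For 58 against 4 weeks it differed by 0.08 ± 0.27 and for 58 against 36 weeks by -0.38 ± 0.51 (exact permutation p = 0.743 and 0.80, adjusted p = 0.83 each). The 36-week mean held replicate 3 at -2.51, the highest ratio of all arrays, and without it the difference from 58 weeks was 0.12. The difference between 8 and 4 weeks also turned, to 0.12, without 4-week replicate 2, and that between 58 and 4 weeks to -0.09 without 4-week replicate 4.

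**Figure D3:**
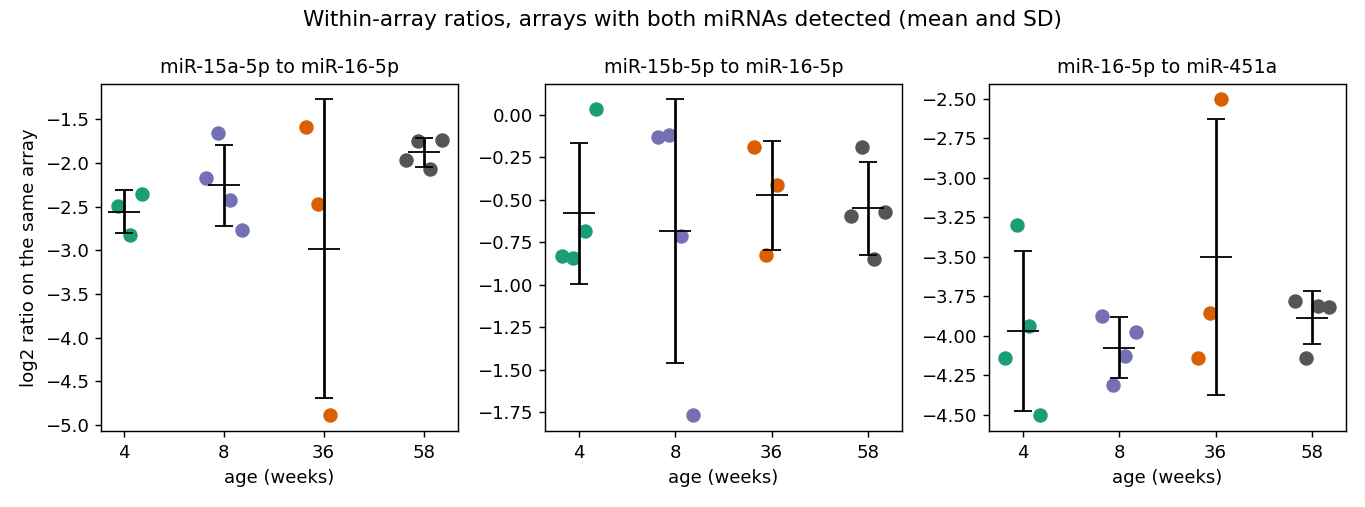
Log2 ratio of 2 miRNAs on the same array (y axis) against age in weeks (x axis), 1 point per mouse in which both were detected, with the mean and SD in black. The miR-15a-5p to miR-16-5p ratios of 58 weeks, from -2.07 to -1.73, lie above the 3 of 4 weeks, and 36-week replicate 3 stands at -4.89 in that plot and at -2.51 for miR-16-5p to miR-451a.

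Across the 16 arrays the log2 signal of miR-16-5p was higher where that of miR-451a was higher, with Pearson r = 0.61 (permutation p = 0.0044) and Spearman rho = 0.68 (permutation p = 0.0048). It was the only relation tested, and the correlations with other miRNAs that follow are descriptions. The median r of miR-16-5p with 115 other miRNAs over the same arrays was 0.37. Without the 2 arrays farthest from the median of miR-451a, 4-week replicate 4 and 8-week replicate 1, r was 0.70 (permutation p = 0.0039). Within the slide of 4 and 8 weeks r was 0.81 (permutation p = 0.014, n = 8) and within that of 36 and 58 weeks 0.73 (permutation p = 0.023, n = 8). The Spearman permutation p was 0.0565 and 0.0582. Each slide holds 2 ages, and both miRNAs had lower means at 8 than at 4 weeks. Among the 4-week mice alone, the highest miR-16-5p signal (8.58) came with the lowest miR-451a signal (11.88). The relation in the older mice rested on 1 array: without 36-week replicate 4, r on that slide was 0.41 (permutation p = 0.352, n = 7). Over the 15 arrays without it r was 0.61 (permutation p = 0.014), and 0.46 (permutation p = 0.11) when the 2 arrays then farthest from the median were left out as well. Both values of an array share its scaling, brightness and RNA input. Without scaling r was 0.62, and with quantile normalization it was 0.14.

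**Figure D4:**
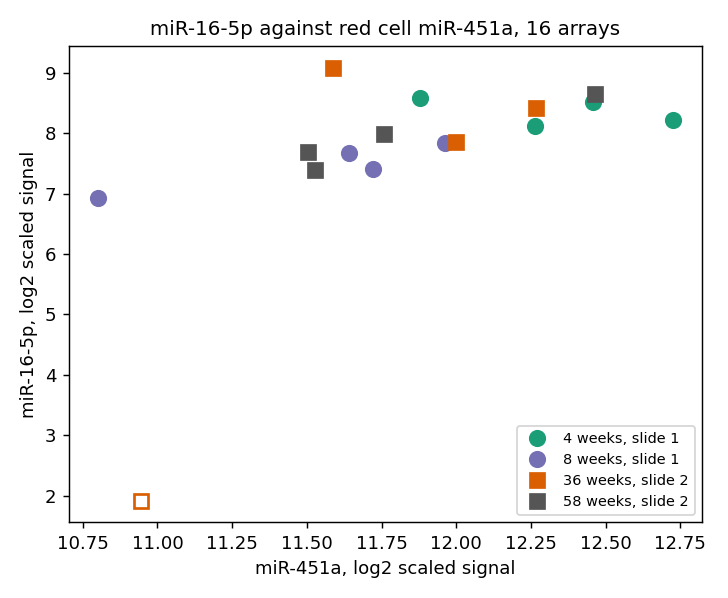
Log2 scaled signal of miR-16-5p (y axis) against that of miR-451a (x axis), 1 point per array, with circles for the slide of 4 and 8 weeks, squares for that of 36 and 58 weeks, and an open symbol for 36-week replicate 4, where miR-16-5p was not detected. The 8 arrays of 4 and 8 weeks have r = 0.81, and the open square stands alone at the floor.

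The members' signals ran together across the mice to different degrees. Over the 15 arrays without 36-week replicate 4, the correlation of log2 signals was 0.73 between miR-16-5p and miR-15b-5p, 0.09 between miR-16-5p and miR-15a-5p and 0.15 between miR-15a-5p and miR-15b-5p. With that array, on which none was detected, the values were 0.81, 0.80 and 0.62. The 15 arrays include 36-week replicate 3, with the lowest detected miR-15a-5p signal (4.19) and the highest of miR-16-5p (9.08) and miR-15b-5p (8.67). No correlation without replicate 3 is given, so the low values of miR-15a-5p may rest on that array. Among 115 miRNAs detected on at least 12 arrays, those most like miR-16-5p over all 16 arrays were miR-93-5p (r = 0.98), let-7i-5p (0.96) and let-7b-5p (0.93). Those most like miR-15b-5p were miR-20a-5p (0.89), miR-93-5p (0.85) and miR-20b-5p (0.82), and those most like miR-15a-5p were miR-106b-5p (0.96), miR-24-3p (0.92) and miR-126a-3p (0.92).

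Over the 15 arrays, miR-93-5p remained the most like miR-16-5p (r = 0.95), followed by miR-25-3p (0.94) and miR-15b-5p (0.73), and let-7i-5p and let-7b-5p fell to ranks 12 and 26. miR-20a-5p remained the most like miR-15b-5p (0.80), followed by miR-25-3p (0.79) and miR-93-5p (0.74). miR-106b-5p remained the most like miR-15a-5p (0.88), followed by miR-19b-3p (0.87) and miR-21a-5p (0.80). The median correlation of a candidate over the 15 arrays was 0.20 with miR-16-5p, 0.15 with miR-15b-5p and 0.02 with miR-15a-5p. These values describe arrays that share a scaling and a background, and carry no test.

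The wider group around miR-15 and miR-107 is defined by related 5′ ends, most of which contain the same 7 bases, and 9 more on the array were listed with the family: 6 by name and 3, miR-6342, miR-6353 and miR-6419, added because their RefSeq seed is the same. Those with a signal are shown to place their shared bases, in capitals. In miR-322-5p they stand at bases 2 to 8, as in the family, and in miR-103-3p and miR-107-3p at bases 1 to 7.

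miR-322-5p: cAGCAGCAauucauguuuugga
miR-103-3p: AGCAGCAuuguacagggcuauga
miR-107-3p: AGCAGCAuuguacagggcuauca

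Of the 9 relatives, 3 were detected on any array and 6 on none, among them miR-195b, miR-497b and miR-503-5p. The last pair do not carry the 7 bases in RefSeq. miR-103-3p was detected on 9 arrays and miR-107-3p on 12, and neither passed in any comparison in the fit of all arrays with equal weights. Their slopes passed with normexp, at 0.19 (adjusted p = 0.0307) and 0.17 (adjusted p = 0.0316) by limma, where 7.72% of tested miRNAs did. The median slope of all tested miRNAs was itself 0.17 with normexp, and the slope spans both slides. With array weights both passed for 36 against 8 weeks (adjusted p = 0.0213 and 0.0227), and miR-103-3p also for 58 against 36 weeks (0.0376) and in the test of any difference between ages (0.0285), beside the shares of all tested miRNAs given above for those weights. For 58 against 4 weeks they differed by 0.11 ± 0.63 and 0.24 ± 0.64 (SE, adjusted p = 0.998 each by limma), and for 8 against 4 weeks by -0.27 ± 0.63 and -0.40 ± 0.64 (adjusted p = 0.881 and 0.798). Of the opposite arms, the strands that pair with the 5 members in their hairpins, 1 of 6 was detected, miR-195a-3p in a single mouse of 4 weeks. Its array, 4-week replicate 1, had the highest negative-control SD (19.1) after 36-week replicate 4. The log2 signal of miR-195a-3p was 6.08 there, and 7.45 but not detected on 36-week replicate 4.

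miR-322-5p, the mouse counterpart of human miR-424, was singled out after its values were seen, and was detected on too few arrays to enter the fit of 285 miRNAs. Its log2 signal was 4.51 (not detected), 4.72, 4.78 and 3.09 (not detected) at 4 weeks and 2.56, 2.91, 1.92 and 1.92 (the last pair not detected) at 8 weeks. At 36 and 58 weeks it was detected in no mouse and reached at most 2.12. The 4-week values include 2 called not detected, 1 of them (3.09) close to a detected 8-week value (2.91). When all 572 miRNAs detected on at least 1 array were fitted, the difference of miR-322-5p was -1.95 ± 0.34 (SE, adjusted p = 0.0415 by limma) for 8 against 4 weeks and -2.34 ± 0.34 (adjusted p = 0.00664) for 58 against 4 weeks. In the test of any difference between ages the adjusted p was 0.0154. In that fit 0.175% of miRNAs passed for 8 against 4 weeks and 0.35% for each of the others. The sizes, SEs and p-values all depend on the floor, since the older mice lay at or near it. The SD was 0.80 and 0.49 at 4 and 8 weeks, but 0.10 and 0.03 at 36 and 58 weeks. The SE pools all ages, and this miRNA was picked after its values were seen. It also entered that fit only by its detections at 4 and 8 weeks, so no age effect is read from the p-values. The comparison of 58 with 4 weeks also spans both slides.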

How the data were processed

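Serum RNA of 16 male mice was labelled with Cy3 and read on 1 Agilent array per mouse. The authors deposited scanner output made with Agilent Feature Extraction 11.5, per the submitters' processing notes. The deposited values used here are the background-subtracted spot intensity, the total intensity of each miRNA and the detection and outlier flags. No scaling between arrays was applied to the deposited intensity, per the file headers.

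Outlier spots were dropped, and intensities were averaged over spots and then probes. Arrays were brought to a common 75th percentile of 24 miRNAs, those detected on every array, none of them a family member. A floor of 3.79 was then applied (the lowest positive scaled signal of any detected miRNA on each array, as a median across arrays), and log2 was taken. Detection in at least 3 mice of some age was required for testing, which 285 miRNAs met. They were fitted with limma 3.58.1 (lmFit, eBayes; R 4.3.3), with 1 mean per age and all 16 arrays. P-values were adjusted by Benjamini-Hochberg over all 285, with a threshold of 0.05. The fit was tested on simulated data.

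Ratios were tested by exact permutation in scipy 1.17.1. Arrays in which either miRNA was not detected were left out of them, a change from the planned test on all 8 arrays of a pair of ages. Correlations used 100000 permutations. The arrays limit precision by their number, and 3 were marked for evaluation by Feature Extraction (4-week replicates 1 and 4, 36-week replicate 4).

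The members and lists were chosen with earlier results of these data known. All members were named. Of their relatives and opposite arms those tested were named, and miR-322-5p and miR-195a-3p were added after their values were seen. The 3 most correlated miRNAs were named for each member detected on at least 12 arrays. Alternatives covered scaling, background correction, floor, filter, probes, variance model, blocks and the arrays in the fit. Those that rescale the arrays without 36-week replicate 4, leave that array out of the correlation, or keep undetected arrays in the ratios were chosen after seeing the data.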

Additional observations from a re-analysis of the deposited data

Results flagged for a closer look

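In groups of 4 to 10 samples, a highest or lowest value far from the rest was looked for in 37 groups of values and found in 4, where chance alone flags about 1.85. miR-107-3p lay at 1.92 on the log2 scale on 36-week replicate 4, far below the other 3 mice of that age. On the same array the negative-control spots had an SD of 59.3. At 8 weeks that SD was 3.54 on replicate 3, the highest of its age. The log2 ratio of miR-16-5p to miR-451a was -4.14 in 58-week replicate 2, apart from the other 3 mice of 58 weeks.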

How the results depend on the processing

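With no member called, the results could change by a member being called or by a direction turning. Members were called under array weights alone: 1 for the slope, 3 for any difference between ages, 2 for 36 against 8 weeks, 1 for 58 against 36 weeks and 1 for 58 against 4 weeks, none in 8 against 4 weeks. Limma's weights stopped short of their convergence tolerance. They called 187, 218, 180, 43 and 177 of all tested miRNAs in the same order, against 1, 1, 0, 0 and 1 with equal weights.

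Calls among all tested miRNAs, given as slope, any difference and 58 against 4 weeks, were 6, 3 and 3 without scaling, 8, 4 and 4 with the brightest probe, 22, 0 and 0 with normexp, and 156, 8 and 35 without the 3 arrays marked for evaluation. They were 3, 0 and 3 when rescaled without 36-week replicate 4. They were 0, 0 and 0 with quantile normalization, with the deposited total signal, with outlier spots kept and with detection on all 4 arrays of an age. With a filter of detection on 1 array, any difference gave 2, 58 against 4 weeks 2 and 8 against 4 weeks 1. With slide as a block the slope and any difference gave 0 and 0. That test of any difference covered only 8 against 4 and 58 against 36 weeks, since each age lay on 1 slide. With the ages compared alone 58 against 4 weeks gave 4. Leaving out single arrays gave 1 to 2, 0 to 2 and 0 to 3.

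The replicate number did not pair the mice: same-numbered arrays correlated between -0.90 and 0.81, and 3 of 16 arrays correlated best with their own number. With the replicate block no member was called, and any difference and 58 against 4 weeks gave 0 and 0 calls over all tested miRNAs.

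Turned slopes were, for miR-15a-5p, 0.011 (quantile), 0.12 (total signal), 0.021 (brightest probe), 0.12 (normexp), 0.14 (array weights), 0.36 (slide block), 0.11 (without the 3 marked arrays) and 0.068 (rescaled without 36-week replicate 4). For miR-15b-5p they were 0.050 (normexp), 0.016 (array weights), 0.0965 (without the marked arrays) and 0.0024 (rescaled). For miR-16-5p they were 0.00087, 0.030 and 0.034 in the first 3 of these settings, and for miR-497a-5p 0.14 with normexp. The median slope of all tested miRNAs was 0.17 with normexp. Without single arrays the slopes ran from -0.079 to 0.10 for miR-15a-5p, from -0.078 to 0.036 for miR-15b-5p and from -0.25 to 0.0091 for miR-16-5p.

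For 8 against 4 weeks, miR-15a-5p turned to 0.57 (quantile) and 0.27 (total signal), and miR-497a-5p to 0.64 (quantile) and 0.0072 (normexp). For 36 against 8 weeks, miR-15a-5p turned to 0.19 (normexp), 0.64 (array weights) and 0.27 (without the marked arrays), and miR-16-5p to 0.49, 1.08 and 0.99, with 0.48 when rescaled. miR-15b-5p turned to -0.81 (quantile) and -0.27 (total signal), and miR-497a-5p to 0.051 (total signal), 0.39 (normexp), 0.027 (array weights) and 0.028 (without the marked arrays). Without single arrays these ran from -1.18 to 0.27 for miR-15a-5p, -1.39 to 0.99 for miR-16-5p and -0.39 to 0.028 for miR-497a-5p.

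For 58 against 36 weeks, miR-15b-5p turned to -0.39 (no scaling), -0.21 (normexp), -0.45 (array weights), -0.60 (without the marked arrays) and -0.39 (rescaled). miR-16-5p turned to -0.011 (normexp), -0.59, -0.52 and -0.31 in the last 3 of these, and miR-497a-5p to 0.13 (quantile), 0.11 (normexp) and 0.27 (floor of 1). Without single arrays these ran from -0.60 to 0.56, -0.52 to 1.86 and -0.44 to 0.0037. For 58 against 4 weeks, miR-15a-5p turned to -0.66 (no scaling), miR-15b-5p to 0.0688 (quantile) and miR-497a-5p to 0.51 (normexp). The medians over all tested miRNAs in these settings were -0.95, 0.055 and 0.45. The causes of these turns were not tested.

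The log2 ratio of miR-15b-5p to miR-16-5p turned to -5.54e-05 (58 against 4 weeks, brightest probe) and 0.079 (8 against 4 weeks, without the marked arrays). That of miR-16-5p to miR-451a turned to -0.27 (58 against 4 weeks, without the marked arrays) and 1.00 (58 against 36 weeks, undetected arrays kept at the floor). Without single arrays the first ran from -0.091 to 0.23 for 58 against 4 weeks, -0.29 to 0.26 for 8 against 4 weeks and -0.25 to 0.066 for 58 against 36 weeks. The second ran from -0.094 to 0.31, -0.28 to 0.12 and -0.70 to 0.12 in that order. The ratio of miR-15a-5p to miR-16-5p kept its direction in all settings run. The correlation of miR-16-5p with miR-451a was not called with quantile normalization (0.14), on the slide of 36 and 58 weeks without 36-week replicate 4 (0.41), or without that array and the 2 then farthest (0.46).

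Scaling to all mouse miRNAs was not run, since their 75th percentile was below 0 on 1 array. Normexp used the median spot signal and an offset of 50, which shrinks differences of dim miRNAs. Signal over background limits miR-195a-5p and miR-497a-5p, which lie near the floor.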
